A study of Mus musculus with 6 samples.

Results

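The chromosome 5 Prame-like cluster of the mouse is a run of closely related genes, and 10 of them were followed here in myoblasts that carried an inducible Dux-type transcription factor. The 10 genes were C87414, BC061212, A430089I19Rik, AA792892, Gm3139, Gm6367, Gm16513, Gm3259, D5Ertd577e and Gm3286, out of 24028 genes in the count table. They were chosen by their place in the cluster, on chromosome 5, and for their large difference between the groups compared here, so their values in that comparison are a description and carry no test. No other row of the table used here lay in the cluster.

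C2C12 is an immortalised line of mouse myoblasts, the precursors of skeletal muscle fibres. Both groups were cultures of 1 clonal C2C12 line, MMH6, which carries a doxycycline-inducible, codon-altered transgene and was kept in 2.6 µg/ml puromycin. The transgene, MMH, joins the N-terminus and homeodomains of mouse Dux to the C-terminus of human DUX4. Induced cells received doxycycline at 2 µg/ml and uninduced cells received none, with 3 separate cultures in each group. The induction is given as 36 h in the sample protocol and as 18 h in the text on the series. A group given doxycycline without the transgene was not analysed here, so effects of the drug and of the transgene cannot be told apart.

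Dux in the mouse and DUX4 in humans are double-homeobox transcription factors of early embryos, where they switch on genes of the first wave of embryonic transcription. The Prame family encodes proteins built of leucine-rich repeats. Human PRAME, its founding member, acts as a substrate receptor of a CUL2 ubiquitin ligase, and in human cells it binds the retinoic acid receptor together with the Polycomb protein EZH2. In the mouse the family has expanded into clusters of near-copies whose own functions are little known.

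In GRCm38, the build also called mm10, the 10 genes lay between 93635182 and 95522402 of chromosome 5, a stretch of 1.887 Mb. C87414 (93635182 to 93671509), BC061212 (94066454 to 94070545) and A430089I19Rik (94302519 to 94306796) were on the minus strand. AA792892 (94377340 to 94384334), Gm3139 (94526284 to 94538367), Gm6367 (94988626 to 95026615) and Gm16513 (95182624 to 95195342) were on the plus strand. Gm3259 (95305923 to 95343575), D5Ertd577e (95456806 to 95485589) and Gm3286 (95510742 to 95522402) were also on the plus strand. RefSeq names 6 of the 10 Pramel, namely C87414 (Pramel34), BC061212 (Pramel37), A430089I19Rik (Pramel39), Gm3139 (Pramel42), Gm3259 (Pramel47) and D5Ertd577e (Pramel48). Gm6367 is annotated there as a transcribed pseudogene, and GENCODE M21 gives it a reading frame. RefSeq places 35 genes over the same stretch, and the other 25, of which 9 are named Pramel and 8 are pseudogenes, were not analysed here. In RefSeq, BC061212 lies within the span of Gm6351 and A430089I19Rik within that of Pramel40, whereas the GENCODE M21 models of BC061212 and A430089I19Rik overlap no other gene. The library kit does not mark strand, so reads from overlapping genes on opposite strands cannot be told apart.

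How alike the copies are decides how far a count can be credited to 1 of them, so the start of the coding sequence is given for all 10. Each line holds 60 coding bases of the GENCODE M21 model, written 5′ to 3′, and capitals mark bases that differ from A430089I19Rik. The stretch runs from coding base 43 to 102, counted from the first annotated coding base, or from 25 to 84 in C87414, Gm3259, Gm6367 and AA792892.
A430089I19Rik: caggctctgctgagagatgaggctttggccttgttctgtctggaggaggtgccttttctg
BC061212: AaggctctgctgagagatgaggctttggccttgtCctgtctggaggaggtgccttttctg
C87414: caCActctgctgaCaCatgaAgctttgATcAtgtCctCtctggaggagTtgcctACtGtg
Gm3259: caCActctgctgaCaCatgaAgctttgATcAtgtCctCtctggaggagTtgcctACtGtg
Gm6367: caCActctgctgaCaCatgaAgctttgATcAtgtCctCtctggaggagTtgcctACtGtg
AA792892: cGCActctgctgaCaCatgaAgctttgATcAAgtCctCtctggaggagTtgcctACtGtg
Gm3139: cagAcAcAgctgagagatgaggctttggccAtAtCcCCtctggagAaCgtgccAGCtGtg
Gm16513: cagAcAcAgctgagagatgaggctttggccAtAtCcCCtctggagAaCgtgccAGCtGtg
D5Ertd577e: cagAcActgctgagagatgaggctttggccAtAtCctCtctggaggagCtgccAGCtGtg
Gm3286: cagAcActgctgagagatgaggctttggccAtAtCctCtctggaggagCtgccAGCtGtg

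BC061212 differed from A430089I19Rik at 2 of these 60 bases, D5Ertd577e and Gm3286 at 11, AA792892 at 16 and the other 5 genes at 14. C87414, Gm3259 and Gm6367 had the same 60 bases, as did Gm3139 and Gm16513, and as did D5Ertd577e and Gm3286. Over the whole coding sequence the 10 genes fell into 3 groups when pairs at 95% identity or more were joined, a limit set after the values were seen. A430089I19Rik and BC061212 formed the first, with 97.8% identical bases. C87414, Gm3259, Gm6367 and AA792892 formed the second, and Gm3139, Gm16513, D5Ertd577e and Gm3286 the third. Within groups 12 pairs had 96.3 to 99.9% identity, while 32 pairs between groups had 75.5 to 86.5%. AA792892 and Gm6367 were left out of the within-group range, since their short models of 834 and 861 coding bases aligned at 74.0% identity although both were over 95% alike with Gm3259. The closest pair was D5Ertd577e and Gm3286, with 1442 of 1443 coding bases identical. Gm3139 and Gm16513 shared 1439 of 1443 bases, and Gm6367 and Gm3259 857 of 861.

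**Figure D1:**
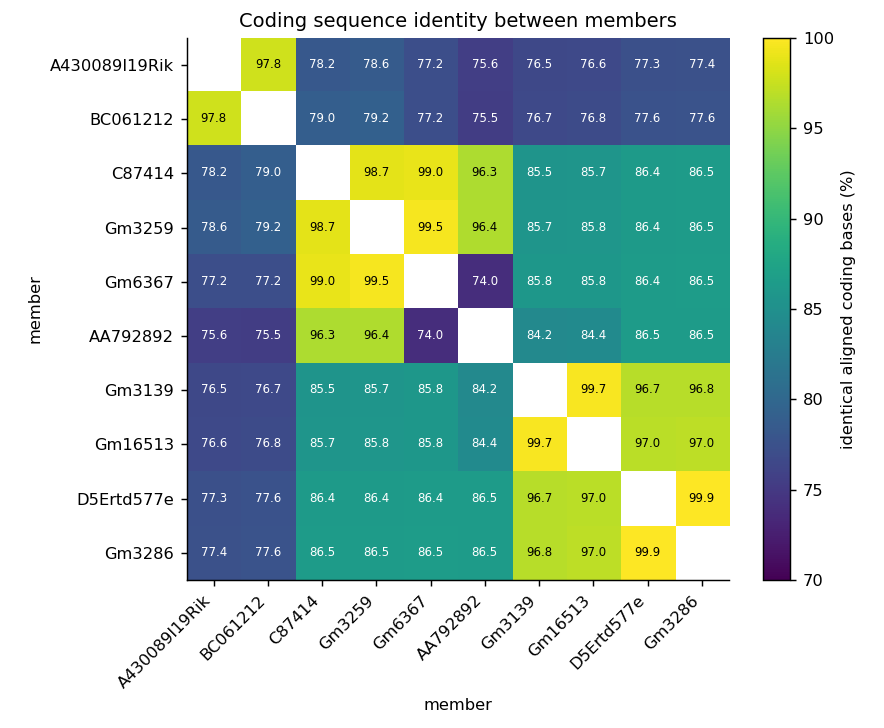
Identity of aligned coding bases (%) for each pair of the 10 genes, from GENCODE M21 models, with rows and columns ordered by sequence group. Pairs within the 3 groups were at 96.3 to 99.9% apart from AA792892 with Gm6367 at 74.0%, and pairs between groups were at 75.5 to 86.5%.

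Transcripts of all 10 genes were far more abundant in induced than in uninduced cells. In CPM, which are counts relative to the library total, with library sizes scaled by the trimmed mean of M values (TMM), the 10 genes together reached 13529 ± 201 CPM in induced cells, against 22.3 ± 0.614 CPM in uninduced cells (SD, n = 3 each), a ratio of 607. They held 0.968% ± 0.0142 of all counts in induced libraries and 0.00311% ± 0.0000855 in uninduced libraries (SD, n = 3 each). The libraries held 21503384 to 24489531 counts in induced cells and 21897417 to 23985544 in uninduced cells. In bulk RNA, a larger share of responding cells and more RNA per cell cannot be told apart.

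The ratio of mean CPM had a median of 455 over the 10 genes with C87414 at its lower bound of 125, and the highest was 897, for Gm3259 with 1 uninduced count. All 10 were at least 16-fold higher, as were 3.43% of the 12969 genes with enough counts to be tested. The groups did not overlap for any of the 10, with every induced library above every uninduced one, which held for 41.5% of tested genes. By edgeR's quasi-likelihood test at an adjusted p of 0.05, 41.3% of tested genes were higher and 41.2% were lower, and the median log2 fold change of all tested genes was -0.01. Because the comparison chose the 10 genes, these shares only set the scale. All 10 passed the filter on low counts, which asks for 0.434 CPM, without TMM scaling, in as many libraries as a group holds. Of the 10, 5 reached this limit in an uninduced library, so the other 5 passed through their induced counts alone. Among the first 5, AA792892 (9, 8 and 11 uninduced counts) and Gm3139 (6, 10 and 6) did not reach it in every uninduced library. Both therefore also needed their induced counts to pass.

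**Figure D2:**
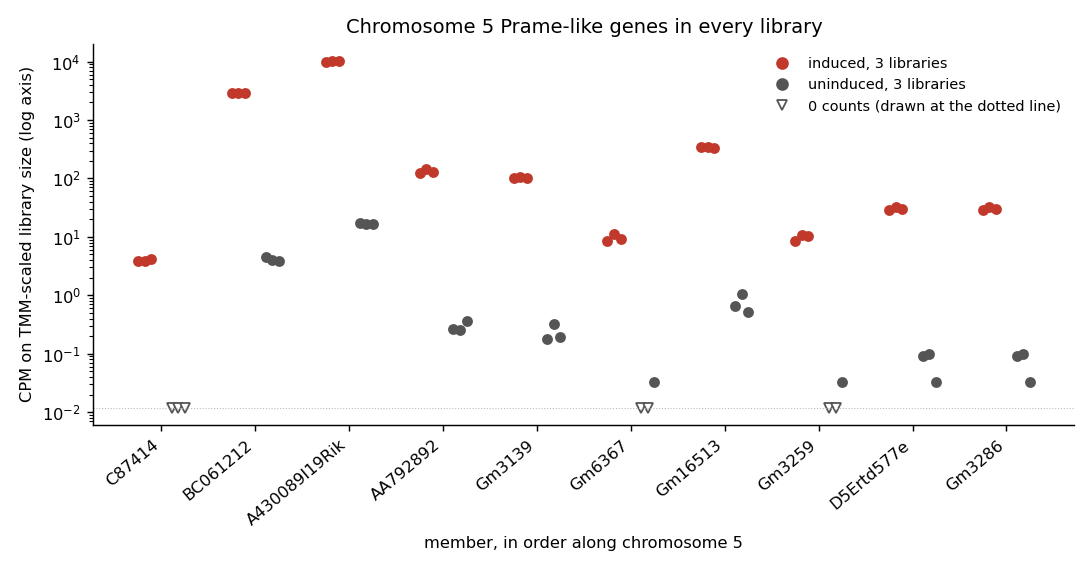
CPM on TMM-scaled library size (log axis) of the 10 genes in each library, in order along chromosome 5, with 3 induced libraries on the left of each gene and 3 uninduced libraries on its right. Open triangles mark 0 counts. Every induced value lies above every uninduced value of the same gene, and A430089I19Rik is highest in both groups.

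A430089I19Rik had the highest level of the 10. Its counts were 171530, 156206 and 175083 in the 3 induced libraries, against 573, 506 and 509 in the 3 uninduced libraries. This came to 9978 ± 177 CPM in induced cells and 16.7 ± 0.393 CPM in uninduced cells (SD, n = 3 each), a ratio of 596. By mean CPM it was 12th among all genes in induced cells and 7290th in uninduced cells. Both groups were narrow and lay far apart, and A430089I19Rik alone made up 73.7% of the counts of the 10 genes in induced cells and 75.1% in uninduced cells.

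BC061212, its closest relative here, followed with 50448, 44197 and 51203 counts in induced libraries, against 150, 126 and 116 in uninduced libraries. Its level was 2891 ± 41.8 CPM in induced cells and 4.12 ± 0.346 CPM in uninduced cells (SD, n = 3 each), a ratio of 701, and it was 29th by mean CPM in induced cells. The CPM of A430089I19Rik was 3.45 times that of BC061212 in induced cells and 4.06 times in uninduced cells. Their gene spans were short, at 4.28 and 4.09 kb. Together they held 95.1% ± 0.143 of the counts of the 10 genes in induced cells and 93.55% ± 1.47 in uninduced cells (SD, n = 3 each). Without A430089I19Rik, the other 9 genes still summed to 3552 ± 32.4 CPM in induced cells and 5.56 ± 0.475 CPM in uninduced cells (SD, n = 3 each), a ratio of 639.

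The group of Gm3139, Gm16513, D5Ertd577e and Gm3286 summed to 503 ± 12.02 CPM in induced cells and 1.12 ± 0.393 CPM in uninduced cells (SD, n = 3 each), a ratio of 450. Gm16513 led it with 5974, 5339 and 5810 counts in induced libraries, against 22, 32 and 16 in uninduced libraries, a ratio of 460. Gm3139 had 1796, 1655 and 1752 counts in induced libraries, against 6, 10 and 6 in uninduced libraries, a ratio of 443. These 2 genes differ at few coding bases, and Gm16513 was 3.29 times as high as Gm3139 in CPM in induced cells and 3.17 times in uninduced cells. How far that gap belongs to these 2 genes rather than to other copies was not tested. D5Ertd577e had 499, 494 and 514 counts in induced libraries, against 3, 3 and 1 in uninduced libraries. Gm3286 had 506, 495 and 517 counts in induced libraries, against the same 3, 3 and 1 in uninduced libraries. The counts of D5Ertd577e and Gm3286 thus ran almost in step, library by library, with ratios of 409 and 412, and their induced levels of 30.0 ± 1.81 and 30.2 ± 1.66 CPM differed by less than their SD (n = 3 each). With this pair counted as 1 row, the summed log2 ratio of all members was 9.25 and their share of induced counts was 0.966%.

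The group of C87414, AA792892, Gm6367 and Gm3259 summed to 157 ± 12.3 CPM in induced cells and 0.318 ± 0.0937 CPM in uninduced cells (SD, n = 3 each), a ratio of 493. AA792892 gave most of this sum, with 2199, 2234 and 2273 counts in induced libraries, against 9, 8 and 11 in uninduced libraries, a ratio of 450. Gm6367 had 151, 172 and 158 counts in induced libraries, against 0, 0 and 1 in uninduced libraries. Gm3259 had 148, 166 and 178 counts in induced libraries, against 0, 0 and 1 in uninduced libraries. With a single uninduced count each, the ratios were poorly fixed, at 879 for Gm6367 (95% exact counting interval 162 to 35804) and 897 for Gm3259 (165 to 36621). C87414 was the lowest of the 10 genes, with 68, 60 and 72 counts in induced libraries and none in any uninduced library. Its level of 3.96 ± 0.146 CPM in induced cells (SD, n = 3) was at least 125-fold higher than the 0.0316 CPM that 3 counts over the 3 uninduced libraries would give. Intervals and floors cover counting error only.

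Per kilobase of exon, which allows levels to be compared between genes, the induced order began with A430089I19Rik at 5399 ± 96.0 CPM per kb and BC061212 at 1524 ± 22.0 CPM per kb (SD, n = 3 each). Gm16513 came next at 116 ± 2.07, then AA792892 at 65.3 ± 4.88 and Gm3139 at 35.6 ± 1.16 CPM per kb. D5Ertd577e at 11.7 ± 0.706 and Gm3286 at 11.4 ± 0.624 CPM per kb did not differ beyond their SD. Gm6367 at 3.90 ± 0.546 and Gm3259 at 3.66 ± 0.451 CPM per kb also did not, and C87414 at 1.34 ± 0.0493 CPM per kb came last (SD, n = 3 for each gene). Induced levels per kb spanned 4040-fold across the 10 genes. The induced-over-uninduced ratios of the 7 genes with more than 1 uninduced count lay between 409 and 701. The lowest of these, 409 for D5Ertd577e and 412 for Gm3286, rest on 7 uninduced counts each and are loosely fixed. The ratios of C87414, Gm6367 and Gm3259 are too poorly fixed to be set beside the others. In uninduced cells A430089I19Rik was again first at 9.06 ± 0.213 CPM per kb, ahead of BC061212 at 2.17 ± 0.182 and Gm16513 at 0.253 ± 0.0906 CPM per kb (SD, n = 3 each). The coefficient of variation over induced libraries was lowest for BC061212 at 1.45% and highest for Gm6367 at 14.0%, where counting alone would give 0.454% and 7.90%.

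**Figure D3:**
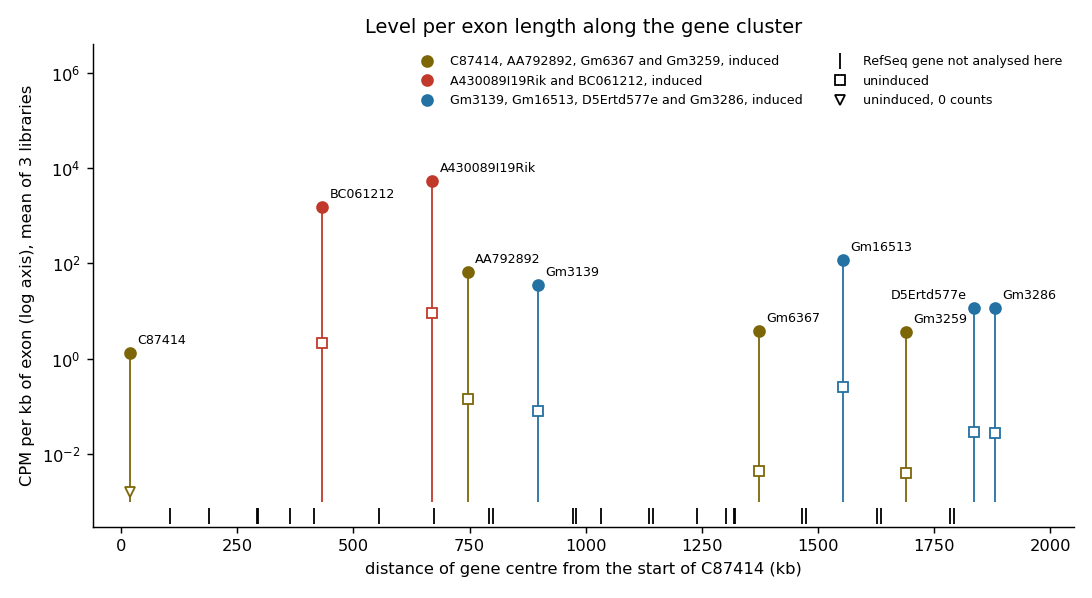
Mean CPM per kb of exon (log axis, n = 3) of the 10 genes against distance from the start of C87414 in kb, coloured by sequence group, with filled circles for induced cells, open squares for uninduced cells and an open triangle for 0 uninduced counts. Short bars at the bottom mark the 25 RefSeq genes of the stretch that were not analysed here. Genes of the other 2 sequence groups are interspersed along the stretch, and A430089I19Rik and BC061212 stand highest in both groups.

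How far these values belong to single copies was read from the annotated transcripts, cut into words of 50 bases. None of the 50-base words of BC061212 was found only in it, and 2.95% of those of A430089I19Rik were found only in that gene. AA792892 and C87414 had the largest shares of words of their own, at 54.1% and 41.5%. The other 6 genes had 6.17 to 22.8%. All words of BC061212 also occurred in Gm7978 (Pramel50, 95731789 to 95736173, beyond Gm3286), and 91.5% of those of A430089I19Rik in Gm3147, a gene within the cluster. Neither gene was analysed here, and counts given to BC061212 and A430089I19Rik could include reads of such copies. Gm3139 and Gm16513 shared 55.3% of the words of the first and 54.9% of those of the second. Of the words of Gm3139, 80.0% occurred in Gm3183, and 70.7% of those of Gm16513 in Gm7792, genes of the cluster that were not analysed here. Gm6367 and Gm3259 shared 82.8% of the words of the first and 72.2% of those of the second. Gm6205, a gene of the cluster not analysed here, held 85.8% of the words of Gm6367 and 74.5% of those of Gm3259. The counts of Gm6367 and Gm3259 may therefore not be separate signals. D5Ertd577e and Gm3286 shared 72.3% of the words of the first and 68.5% of those of the second. E330014E10Rik, the next gene of the table after the cluster, held 80.3% of the words of Gm3286 and 68.0% of those of D5Ertd577e, yet it had 0 counts in all 6 libraries. Levels of single genes are therefore uncertain where copies share reads. How the read counter treated reads with several matches is not given in the sources used here, and its part in the order of levels was not tested.

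**Figure D4:**
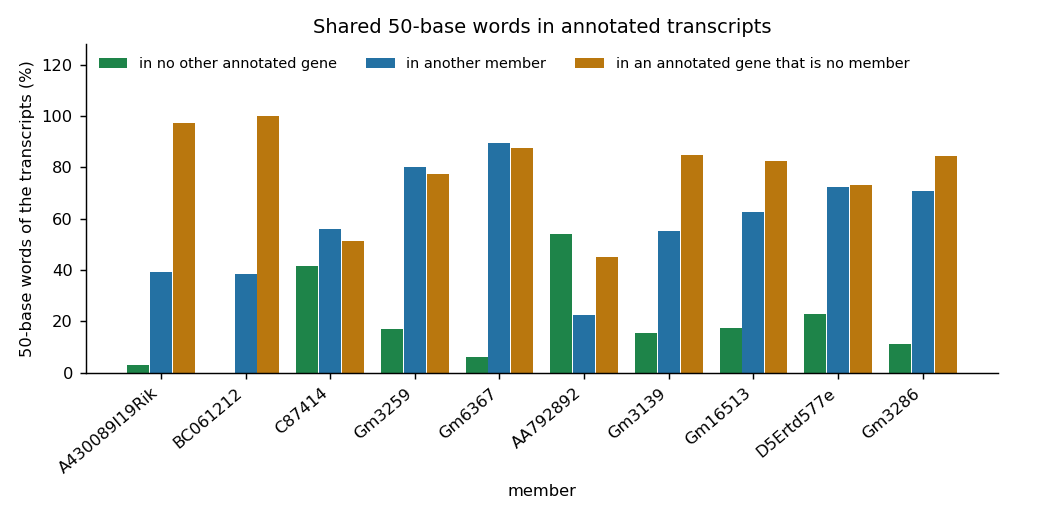
Percent of the 50-base words of each gene's annotated transcripts that occur in no other annotated gene, in another of the 10 genes, or in an annotated gene outside the 10, where a word may fall in both of the last 2 classes. Words of a gene's own ran from none in BC061212 to 54.1% in AA792892.

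Upstream sequence could be read for 3 of the 10 genes from RefSeq promoters of GRCm38.p6, and it is shown because A430089I19Rik and BC061212 were the 2 most abundant. The 250 bases before each annotated start are written 5′ to 3′ on the gene's strand, with capitals marking the TATA box TATAAA. They cover 94306797 to 94307046 (minus strand) for A430089I19Rik, 94070546 to 94070795 (minus strand) for BC061212 and 95456556 to 95456805 (plus strand) for D5Ertd577e.
A430089I19Rik: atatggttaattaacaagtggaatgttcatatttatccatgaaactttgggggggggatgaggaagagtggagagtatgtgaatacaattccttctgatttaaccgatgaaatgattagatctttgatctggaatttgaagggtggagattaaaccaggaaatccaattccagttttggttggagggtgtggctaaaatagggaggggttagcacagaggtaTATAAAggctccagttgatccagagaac
BC061212: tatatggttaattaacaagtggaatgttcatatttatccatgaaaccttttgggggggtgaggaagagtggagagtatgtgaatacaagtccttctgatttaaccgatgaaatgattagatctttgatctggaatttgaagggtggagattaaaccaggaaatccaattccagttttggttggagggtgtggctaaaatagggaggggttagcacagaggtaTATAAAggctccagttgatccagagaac
D5Ertd577e: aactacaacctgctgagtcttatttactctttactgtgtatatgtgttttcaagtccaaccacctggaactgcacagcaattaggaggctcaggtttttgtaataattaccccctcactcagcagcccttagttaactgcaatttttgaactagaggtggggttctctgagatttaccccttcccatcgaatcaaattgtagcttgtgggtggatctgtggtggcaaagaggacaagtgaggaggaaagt

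The upstream stretches of A430089I19Rik and BC061212 matched at 245 of 249 aligned bases, or 98.4%, whereas D5Ertd577e matched them at 60.6 and 63.4%. TATAAA stood 28 to 23 bases before the start in A430089I19Rik and BC061212 and was not found in D5Ertd577e. Searched on both strands over 250 bases before to 50 after the start, it occurred in 2 of these 3 promoters and in 13.6% of 32851 RefSeq promoters. A Dux-type word, TGATT and AATCA separated by 1 base, occurred in 0 of the 3 and in 0.0335% of all promoters. A DUX4-type word, TAA and AATCA separated by 3 bases, occurred in 0 of the 3 and in 1.03% of all, and the Dux-type and DUX4-type words can overlap. A missing match says only that these letters are not in this window. The upstream stretches held 40% G or C in both A430089I19Rik and BC061212 and 43.6% in D5Ertd577e, against a median of 52.4% over all promoters.

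The genes on either side of the cluster were tested, since the choice of the 10 did not rest on them. Ccng2, which encodes an unconventional cyclin, was the nearest tested gene before the cluster at 359 kb from C87414. It was higher in induced cells, at 146 ± 0.964 CPM against 27.6 ± 0.967 CPM in uninduced cells (SD, n = 3 each), 2.40 ± 0.05 higher on the log2 scale (SE, edgeR adjusted p = 4.8e-23). The other 4 tested genes before the cluster were lower, with log2 fold changes of -0.14 for Ccni, -0.71 for Sept11, -0.91 for Shroom3 and -0.60 for Stbd1. After the cluster Cnot6l, a deadenylase subunit gene 548 kb from Gm3286, fell by 0.22 ± 0.05 on the log2 scale (SE, edgeR adjusted p = 0.00016), and Anxa3, an annexin gene, fell by 0.94 ± 0.04 (SE, edgeR adjusted p = 1.4e-15). Mrpl1, Fras1 and Bmp2k were higher by 0.22, 0.79 and 0.46 on the log2 scale, but scaled by library size alone they stood at -0.74, -0.17 and -0.51. Shroom3 missed the threshold without the second induced library (-0.60, edgeR adjusted p = 0.0507), Fras1 without the third uninduced library (0.54, edgeR adjusted p = 0.0976), and Mrpl1 without the third induced library (0.19, edgeR adjusted p = 0.062) or the second uninduced library (0.19, edgeR adjusted p = 0.0571). The ratios of the 10 genes lay well above those of the 10 tested genes around them. Since the 10 were chosen for a large difference in this comparison and their neighbours were not, that gap is a description and carries no test.

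**Figure D5:**
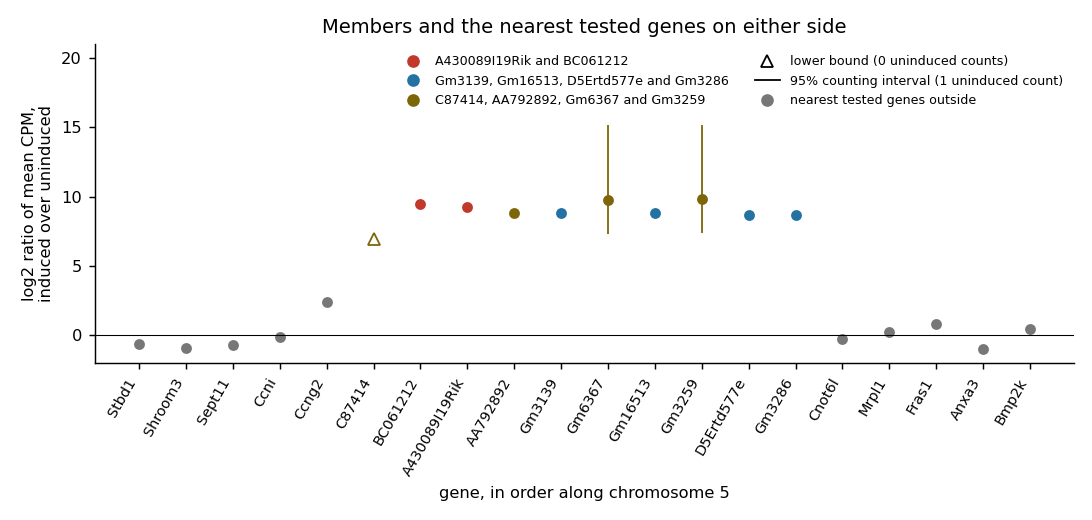
Log2 ratio of mean CPM in induced over uninduced cells for the 10 genes, coloured by sequence group, and for the 5 nearest tested genes on each side (grey), in order along chromosome 5. The open triangle is the lower bound of C87414 and vertical lines are 95% counting intervals of the 2 genes with 1 uninduced count. The neighbours lie between -0.94 and 2.40, and the 10 genes, which were chosen for a large difference in this comparison, at 6.97 or more.

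Outside the cluster, 15 further rows of the table carried Prame-family names (Prame, Pramel, Pramef or Oog). They summed to 20368 ± 203 CPM in induced cells and 44.8 ± 1.93 CPM in uninduced cells (SD, n = 3 each), a ratio of 455 beside the 607 of the chromosome 5 genes. Pramef8 alone gave 28.1 CPM of the uninduced sum and had a ratio of 6.52, which lowered the ratio of the sum. The ratio was 298 for Pramef17, 1227 for Pramef25 and 1655 for Pramef6. It was 2414 for Pramel5, which had few uninduced counts. For Oog4 and Pramel4 it was at least 1369 and at least 401, against 3 counts over the group. Of the 15, 7 passed the filter on low counts, and a row without uninduced counts could pass it by its induced counts only. These 7 were called higher, as were 41.3% of all tested genes, and the filter partly fixes that count. Oog4 and Pramel4 had no uninduced count and Pramel5 had 1, 0 and 1, so each passed through its induced counts alone. Pramef17, with 16, 22 and 8 uninduced counts, was under the limit in the third uninduced library and also needed its induced counts to pass.

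The genes whose profile over the 6 libraries was most like that of the summed cluster were picked by the smallest root mean square difference of centred log2(CPM + 0.5). They were Tcstv3 at 0.14, Gm4340 at 0.15, Gm21312 at 0.17, Tmem92 at 0.19 and Gm13083 at 0.22 log2 units over 6 libraries. Gm13083 lies on chromosome 4 between Oog4 and Pramef6. The further Prame-family rows were taken by name, so Gm13083 was not in their sum. With only 6 libraries in 2 groups, likeness here mostly means a similar ratio between the groups. Tcstv3, for instance, was at 1981 ± 97.7 CPM in induced cells and 3.27 ± 0.618 CPM in uninduced cells (SD, n = 3 each). Tmem92, which encodes a transmembrane protein, was at 469 ± 24.3 CPM in induced cells and 0.498 ± 0.0694 CPM in uninduced cells (SD, n = 3 each).

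Genes of the CUL2 ligase, the complex in which human PRAME works, were called at shares near those of all tested genes. Of 19 listed genes 18 were tested, 9 were higher and 7 lower, beside 41.3% higher and 41.2% lower of all tested genes, with a median log2 fold change of 0.12 beside -0.01 for all tested genes. Cul2 itself, the scaffold, was at 33.8 ± 1.22 CPM in induced cells and 46.5 ± 1.74 CPM in uninduced cells (SD, n = 3 each), and so fell by 0.46 ± 0.06 on the log2 scale (SE, edgeR adjusted p = 8.9e-08). Rbx1, its RING subunit, fell by 0.76, and Nedd8, the ubiquitin-like protein that activates cullins, fell by 0.80 on the log2 scale. The substrate receptor genes Appbp2 and Fem1c rose by 1.55 and 1.19, Cand1, an exchange factor of cullin ligases, rose by 1.21, and the substrate receptor gene Zer1 fell by 1.27 on the log2 scale. Tceb1, for elongin C, was higher by 0.34 but stood at -0.62 when scaled by library size alone. That scaling shifted the median of all tested genes to -0.97 and left 3 of the CUL2 genes higher and 15 lower.

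Genes of retinoic acid signalling and of Polycomb repressive complex 2, to which human PRAME has been tied, were also called at shares near the background. Of 27 listed genes 21 were tested, 9 were higher and 10 lower, beside 41.3% and 41.2% of all tested genes, with a median log2 fold change of -0.29. The filter on low counts partly fixes these counts. Among the higher genes Aldh1a1 and Crabp1 (8, 6 and 14 uninduced counts) needed their induced counts to pass it. Among the lower genes Dhrs3 (10, 5 and 16 induced counts) needed its uninduced counts. With library size alone as the scale, 4 were higher and 15 lower. The receptor genes Rarg and Rara fell by 1.10 and 0.74 on the log2 scale, while Rxrg rose by 1.60. Aldh1a1, an enzyme that makes retinoic acid, had 57, 38 and 55 counts in induced libraries and none in uninduced libraries, at least 93.4-fold higher against 3 counts over the group. Tgm2, a textbook retinoic acid target, fell by 2.54 ± 0.20 and Dhrs3, a retinal reductase, fell by 2.78 ± 0.25 on the log2 scale (SE, edgeR adjusted p = 1.7e-11 and 2.7e-10). Ezh2, the methyltransferase of the Polycomb complex, was at 209 ± 2.63 CPM in induced cells and 72.2 ± 0.969 CPM in uninduced cells (SD, n = 3 each), a log2 fold change of 1.54 ± 0.04. Eed, its partner, was higher by 0.70 but stood at -0.27 when scaled by library size alone. Ezh2, Eed, Rara, Cul2 and Tceb1 were named for their roles after their values were seen.

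Markers of other cells moved with the comparison and are given beside it. Of 9 tested myoblast markers 7 were lower and 1 was higher, beside 41.2% lower and 41.3% higher of all tested genes. The summed level of the listed myoblast markers was 1381 to 1411 CPM in induced and 2226 to 2237 CPM in uninduced libraries. Myod1, the defining myogenic factor, was at 37.1 ± 0.896 CPM in induced cells and 178 ± 4.09 CPM in uninduced cells (SD, n = 3 each), so both groups held myoblast RNA. Of 18 oocyte marker rows 7 were at 0 in all libraries, Zp3 among them. Only Gdf9 was tested, and it was higher by 3.33 on the log2 scale. With 6, 13 and 9 uninduced counts, Gdf9 needed its induced counts to pass the filter on low counts. The summed level of the oocyte markers was 3.88 to 4.45 CPM in induced and 0.599 to 0.841 CPM in uninduced libraries. Of 12 embryonic stem cell markers 5 were at 0 in all libraries, Pou5f1 among them. The 3 that were tested were higher, such as Nanog by 3.30, beside 41.3% of all tested genes, and the filter partly fixes that count. Sox2 had no uninduced count and Esrrb had 7, 5 and 5, so each passed the filter through its induced counts alone. The summed level of the 12 embryonic stem cell markers was 9.58 to 11.9 CPM in induced and 0.906 to 1.08 CPM in uninduced libraries. Fibroblast markers were 1 higher and 2 lower of 4 tested, adipocyte markers 1 higher and 1 lower of 2, and the 1 macrophage marker tested was not called (log2 fold change 0.19). The Dux row, to which reads of the codon-altered transgene need not align, had 252, 216 and 220 counts in induced libraries, against 1, 3 and 0 in uninduced libraries. The part of these markers in the levels of the 10 genes was not tested.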

How the data were processed

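Polyadenylated RNA of 6 cultures was sequenced from libraries of a kit that does not mark strand, per the labels' protocols. The authors deposited raw counts per gene. Reads were processed with CASAVA, TopHat2 2.0.12 and Bowtie2 2.2.3 on mm10, per the submitters' processing notes. How reads were assigned to genes, with which strand setting, annotation and rule for several matches, is not given in the sources used here, which matters for near-identical copies.

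Counts were tested with edgeR 4.0.16 in R 4.3.3 (filterByExpr with a minimum count of 10, TMM, quasi-likelihood test, two-sided, Benjamini-Hochberg adjustment over 12969 genes, threshold 0.05). The procedure was tested on simulated data. TMM factors were 0.712 to 0.719 in induced and 1.39 to 1.40 in uninduced libraries. Of 24028 genes 23964 had a RefSeq position. Coding sequences of GENCODE M21 were aligned with Biopython 1.88, and the 60-base stretch with MAFFT 7.526. DESeq2 1.42.0 and other settings were alternatives.

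The 10 genes and all lists were chosen with earlier results of these data known. Named besides the 10 were the 5 nearest tested genes on each side, the 5 of most similar profile, up to 3 rising and 3 falling called genes per list, and checks of cell identity; some genes that this rule names are not reported here. The replicates were separate cultures of 1 clone, so p-values measure the spread between such cultures.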

Additional observations from a re-analysis of the deposited data

How the results depend on the processing

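The summed log2 ratio of the 10 genes was 9.25, and it was 9.10 with upper-quartile scaling, 9.17 without the filter on low counts and 8.28 when scaled by library size alone. It ranged from 9.22 to 9.26 when each library was left out in turn. All 10 genes were at least 16-fold higher under every alternative run, and their lowest log2 ratio was 6.01, a bound for C87414 under library size alone. Without 1 uninduced library that bound was as low as 6.34. Library size alone counted 1977 genes higher and 9949 lower, in place of 5351 and 5347, and upper-quartile scaling 4593 higher and 6191 lower. Library size alone left 3 CUL2 genes higher and 15 lower, in place of 9 and 7, and 4 retinoic acid or Polycomb genes higher and 15 lower, in place of 9 and 10. The same scaling turned Mrpl1 to -0.74, Fras1 to -0.17, Bmp2k to -0.51, Tceb1 to -0.62 and Eed to -0.27. Mrpl1 also missed the threshold with upper-quartile scaling (0.08, edgeR adjusted p = 0.359) and without the filter (0.15, edgeR adjusted p = 0.0938). The cause was not tested. With the replicate number as a block 10813 genes were called in place of 10698. Libraries of the same number deviated together only weakly (correlations of 0.079, 0.0074 and 0.061). With so few libraries, weak correlations cannot show whether the numbers pair the cultures. DESeq2 called 10266 genes. Few uninduced counts limit the ratios of C87414, Gm6367 and Gm3259, and to a lesser degree those of D5Ertd577e and Gm3286.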
